A study of Mus musculus with 8 samples.

Results

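The genes examined were 10 markers of vessel endothelium, the cell layer that lines blood and lymph vessels, measured in mouse distal colon. Members were found by their symbols among 52143 gene rows, and each of the 10 symbols had 1 row. 7 of them are used mainly as blood vessel markers (Pecam1, Cdh5, Kdr, Flt1, Tek, Vwf and Plvap) and 3 as lymph vessel markers (Lyve1, Prox1 and Flt4). RNA was sequenced from 4 control and 4 Siglec-XII samples. Siglec-XII mice were females that carried 1 copy of human SIGLEC12, knocked in at ROSA26 behind a floxed EGFP-stop cassette and the CAG promoter, together with Villin1-Cre-ERT. Controls were female littermates with Villin1-Cre-ERT alone. Both groups thus carried the tamoxifen-activated Cre, and both received tamoxifen for 5 days (10 mg/ml) at 8 weeks of age, with colons taken 7 days after the last dose. The Villin1 promoter drives Cre in the epithelium of villi and crypts, so the transgene is directed to epithelium and not to the vessel wall. The comparison therefore asks how RNA of vessel cells in the same tissue differed when the epithelium was set to express Siglec-XII. SIGLEC12, EGFP and Cre have no row here, and induction was thus not checked in these data. The paper reports Siglec-XII protein in the intestine of the transgenic mice, and not of controls, at its early time point after tamoxifen. It did so by immunoblotting and immunohistochemistry.

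Endothelial cells hold together through adhesion molecules at their borders, survive and sprout through receptor tyrosine kinases for the VEGF and angiopoietin families, and store or build proteins that serve clotting and permeability. In the gut, fenestrated capillaries just under the epithelium take up nutrients into blood, and lymph vessels carry fluid, fat and immune cells away. Lymph vessel cells share Pecam1 and part of the kinase set with blood vessel cells, so the division into blood and lymph markers is one of degree. Lyve1 is also made by some resident macrophages, Vwf by megakaryocytes, Pecam1 by platelets and several leukocytes, and Prox1 by enteroendocrine cells and other cells outside lymph vessels. RNA came from whole tissue, in which fewer cells of a type and less RNA per cell cannot be told apart.

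Levels are in TPM, which correct for gene length and sum to 1000000 in each sample, converted from the deposited log2(TPM + 1). In the control samples the 10 genes fell into a higher and a lower set. Lyve1, a hyaluronan receptor of lymph vessels, had the highest mean level, at 3.37 ± 0.615 TPM (SD, n = 4). Plvap, which forms the diaphragms of fenestrae and caveolae, followed at 2.22 ± 1.01 TPM, then Pecam1 at 2.16 ± 0.288 TPM and Vwf at 1.63 ± 0.451 TPM. The other 6 genes lay below 1 TPM in all 8 samples, with control means from 0.430 ± 0.183 TPM for Cdh5 down to 0.412 ± 0.259 TPM for Flt4, 0.261 ± 0.0634 TPM for Flt1, 0.211 ± 0.0489 TPM for Prox1, 0.205 ± 0.0691 TPM for Kdr and 0.176 ± 0.0486 TPM for Tek. Between neighbours in this order the sample values did not overlap for Vwf and Cdh5, and they overlapped for each of the other 8 neighbouring pairs. Lyve1 was also first and Tek last in the Siglec-XII samples, where Vwf stood second and Plvap below Pecam1. Even Tek lay at or above 64.7% of all rows and Lyve1 at or above 79.4%, since many rows are at or near 0. For comparison, Epcam, an epithelial adhesion molecule, had a control mean of 1472 TPM, so the vessel genes were a small part of this RNA.

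**Figure D1:**
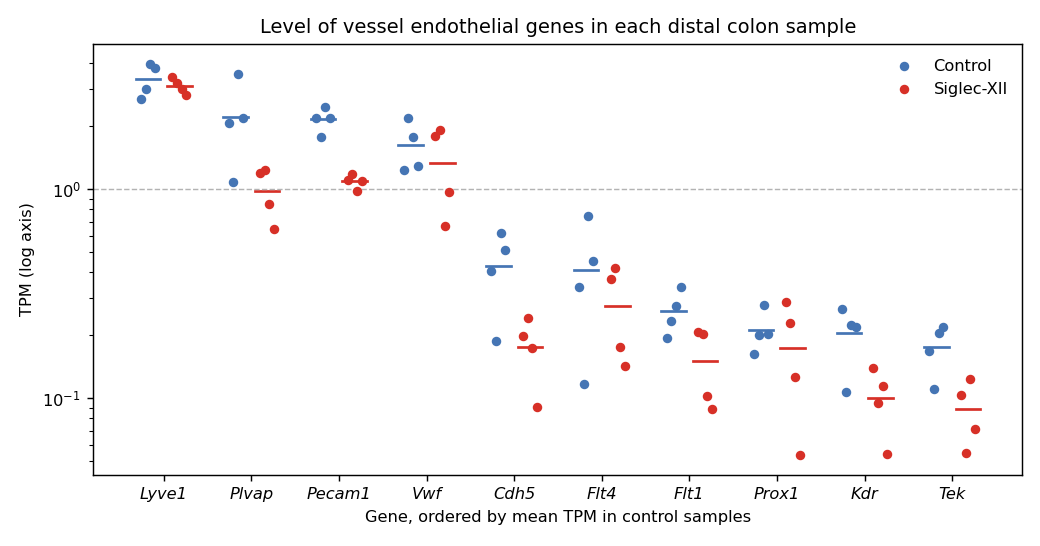
Level of each vessel gene in TPM (log axis) in the 4 control samples (blue) and the 4 Siglec-XII samples (red), with genes in order of their control mean, horizontal bars at the group means and a dashed line at 1 TPM. Pecam1 is the gene whose 4 Siglec-XII points all lie below its 4 control points, and 6 genes lie below the dashed line in every sample.

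Group differences were tested with limma on log2(TPM + 1), over the 13164 genes with at least 1 TPM in at least 4 samples. 4 of the 10 members (Pecam1, Vwf, Plvap and Lyve1) passed this filter, and 6 did not. Pecam1 reached 1 TPM in 4 controls and 3 Siglec-XII samples, and Plvap and Vwf each in 4 controls and 2 Siglec-XII samples, so these 3 passed through the group with the higher level, and counts over the 4 are a description. None of the 4 passed an adjusted p of 0.05, which 5 genes did (0.038% of those tested). At an unadjusted p of 0.05, 2 of the 4 were lower in Siglec-XII samples (Pecam1 and Plvap) and none was higher, beside 7.67% of the genes tested lower and 1.19% higher. To read all 10 members, the same fit was made without a filter on the 31352 genes above 0 in at least 1 sample. There 6 of 10 members were lower at an unadjusted p of 0.05 (Pecam1, Cdh5, Kdr, Flt1, Tek and Plvap), beside 5.35% of genes. None of the 10 was higher at that level (1.17% of genes were), and none passed an adjusted p of 0.05 (0.00957% of genes did). The other 4 members, Vwf, Lyve1, Prox1 and Flt4, missed this threshold, and no test compared the blood with the lymph vessel markers as groups. All 10 differences were below 0, as were 68.5% of those of the 31352 genes. The median difference of the 10 members was -0.13, beside -0.04 over these genes. A difference on this scale understates the proportional change of a gene far below 1 TPM, so the ratio of mean TPM is given beside it. The labels do not say that samples are separate mice, and the Methods describe 3 technical replicate libraries made from each sample. Whether the numbered samples are mice or such libraries is not stated in the sources used here, so SDs and p-values measure the spread between these samples only, which may be technical.

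Pecam1 and Cdh5 are adhesion molecules of the endothelial border. Pecam1 (CD31, ENSMUSG00000020717, chr11:106654217-106750628 on the minus strand of GRCm38) binds its like on the neighbouring cell. Its level was 2.18, 1.78, 2.48 and 2.19 TPM in control samples 1 to 4 and 1.11, 1.18, 0.985 and 1.10 TPM in Siglec-XII samples 1 to 4. All 4 Siglec-XII values lay below all 4 control values, and the Siglec-XII values were close together. The mean level in Siglec-XII samples was 0.507 times that of controls (1.09 ± 0.0812 against 2.16 ± 0.288 TPM). The log2 difference was -0.59 (SE 0.123), with an unadjusted limma p of 0.000973, the 16th smallest of 13164, and a Benjamini-Hochberg adjusted p of 0.515. Pecam1 was the single member whose groups did not overlap, a state that 4.06% of the genes tested showed in the lower direction. In the fit without a filter its unadjusted p was 0.00251.

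Cdh5 (VE-cadherin, ENSMUSG00000031871, chr8:104101625-104144511, plus strand) is the cadherin of endothelial adherens junctions. It measured 0.406, 0.187, 0.617 and 0.510 TPM in controls and 0.198, 0.242, 0.173 and 0.0909 TPM in Siglec-XII samples. Control 2 lay within the Siglec-XII range and the other 3 controls lay above it. The mean level was 0.409 times that of controls, the lowest such ratio among the members. The log2 difference was -0.27 (SE 0.0976), with an unadjusted limma p of 0.0238 and an adjusted p of 0.682. An annotated gene on the opposite strand (Gm29682) overlaps Cdh5, and whether read strand was used is not stated in the sources used here.

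Kdr, Flt1 and Tek encode receptor tyrosine kinases. Kdr (VEGFR2, ENSMUSG00000062960, chr5:75932827-75978458, minus strand) carries most of the growth signal of VEGF-A. Flt1 (VEGFR1, ENSMUSG00000029648, chr5:147561604-147726011, minus strand) binds VEGF-A, VEGF-B and placental growth factor and has a soluble form that acts as a trap. Tek (TIE2, ENSMUSG00000006386, chr4:94739289-94874976, plus strand) is the receptor of the angiopoietins. Kdr had levels of 0.268, 0.107, 0.225 and 0.219 TPM in controls and 0.139, 0.0944, 0.114 and 0.0541 TPM in Siglec-XII samples, so that Control 2 alone lay in the Siglec-XII range. The ratio of mean TPM was 0.491, and the log2 difference was -0.13 (SE 0.0474), with an unadjusted limma p of 0.0271. Flt1 had levels of 0.194, 0.233, 0.275 and 0.342 TPM in controls and 0.206, 0.202, 0.102 and 0.0888 TPM in Siglec-XII samples. Here Control 1 overlapped the Siglec-XII range, and Siglec-XII samples 3 and 4 were the low ones. The ratio was 0.574 and the log2 difference -0.13 (SE 0.0536), with an unadjusted limma p of 0.0389. Tek had levels of 0.168, 0.111, 0.206 and 0.219 TPM in controls and 0.103, 0.0545, 0.124 and 0.0713 TPM in Siglec-XII samples. Again Control 2 overlapped, below the highest Siglec-XII sample. The ratio was 0.502 and the log2 difference -0.11 (SE 0.0373), with an unadjusted limma p of 0.0184. The adjusted p of each of the 3 kinases was 0.682. Flt1 was above Kdr in mean TPM in both groups, and the ratio of Flt1 to Kdr averaged 1.43 ± 0.617 among controls and 1.54 ± 0.515 among Siglec-XII samples, a difference within the spread.

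The promoters of these 3 kinases are shown because they had lower values side by side and because the RefSeq start of each lies at the start of its annotated transcript. Each sequence is the 250 bases before the start on GRCm38.p6, 5′ to 3′ on the gene's strand, from chr5:75978456-75978705 for Kdr, chr5:147726012-147726261 for Flt1 and chr4:94739039-94739288 for Tek. Capitals mark GGAA or its reverse complement, the core read by ETS factors, a family that includes regulators of endothelial genes.
Kdr promoter: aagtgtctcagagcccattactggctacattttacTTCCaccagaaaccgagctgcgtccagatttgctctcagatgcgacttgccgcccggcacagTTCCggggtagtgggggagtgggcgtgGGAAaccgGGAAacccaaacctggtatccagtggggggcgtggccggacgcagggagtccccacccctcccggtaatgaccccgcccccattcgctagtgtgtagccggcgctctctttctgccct
Flt1 promoter: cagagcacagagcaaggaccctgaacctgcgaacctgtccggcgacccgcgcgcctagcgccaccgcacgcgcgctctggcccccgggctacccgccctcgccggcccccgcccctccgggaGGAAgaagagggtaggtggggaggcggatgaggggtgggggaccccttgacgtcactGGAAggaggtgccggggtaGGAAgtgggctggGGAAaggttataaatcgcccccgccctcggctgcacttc
Tek promoter: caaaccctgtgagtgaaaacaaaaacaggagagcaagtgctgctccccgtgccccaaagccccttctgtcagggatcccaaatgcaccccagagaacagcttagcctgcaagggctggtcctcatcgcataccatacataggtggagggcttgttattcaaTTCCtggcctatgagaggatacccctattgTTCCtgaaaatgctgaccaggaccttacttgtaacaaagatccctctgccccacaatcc
The core occurred 4 times in the Kdr sequence, 4 times in Flt1 and 2 times in Tek. It is short, and 93.4% of 32851 RefSeq promoters of the same length hold it on either strand, so holding it does not set these genes apart. The longer AGGAAG, which contains the core, was found in Flt1 and in 29.5% of promoters. AACAAT, a SOX letter pattern, was found in Tek and in 9.42% of promoters, and GTAAACA, a FOX pattern, in none of the 3 and in 3.17% of promoters. Of the other members, Prox1 and Flt4 also had a RefSeq promoter entry.

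Plvap and Vwf mark specialised products of blood vessel endothelium. Plvap (ENSMUSG00000034845, chr8:71497765-71511752, minus strand) had levels of 2.07, 1.08, 3.55 and 2.18 TPM in controls and 1.19, 1.24, 0.844 and 0.646 TPM in Siglec-XII samples. 3 of 4 controls lay above all Siglec-XII samples, and Control 2 lay among them. The mean level was 0.442 times that of controls (0.980 ± 0.284 against 2.22 ± 1.01 TPM). The log2 difference of -0.66 (SE 0.233) was the largest in size among the members, with an unadjusted limma p of 0.0198 and an adjusted p of 0.515. Without Siglec-XII sample 4 its unadjusted p was 0.0536. Plvap overlaps Gtpbp3 on the opposite strand.

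Vwf (von Willebrand factor, ENSMUSG00000001930, chr6:125546774-125686679, plus strand) is the clotting glycoprotein of endothelial storage granules. It had levels of 1.24, 2.20, 1.77 and 1.30 TPM in controls and 1.80, 1.92, 0.669 and 0.965 TPM in Siglec-XII samples. The groups overlapped, with Siglec-XII samples 1 and 2 inside the control range and samples 3 and 4 below it. The ratio of mean TPM was 0.823, and the log2 difference of -0.19 (SE 0.217) did not pass, with an unadjusted limma p of 0.402 and an adjusted p of 0.674. Control 2, the lowest control for Pecam1, Cdh5, Kdr, Tek, Plvap and Flt4, was the highest for Vwf. The transcript named beside Vwf in the deposited rows is a short one of 11 exons and 1807 bases. Whether a row sums a gene's transcripts is not stated in the sources used here.

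None of the 3 lymph vessel markers passed an unadjusted p of 0.05. Lyve1 (ENSMUSG00000030787, chr7:110850607-110863239, minus strand) had levels of 2.70, 3.01, 3.99 and 3.79 TPM in controls and 3.42, 3.21, 3.02 and 2.81 TPM in Siglec-XII samples. All 4 Siglec-XII values lay inside the control range. The ratio of mean TPM was 0.924, and the log2 difference was -0.08 (SE 0.141), with an unadjusted limma p of 0.592 and an adjusted p of 0.790. Prox1 (ENSMUSG00000010175, chr1:190118035-190170714, minus strand) is the transcription factor that sets lymphatic identity. It had levels of 0.162, 0.202, 0.279 and 0.203 TPM in controls and 0.290, 0.228, 0.127 and 0.0534 TPM in Siglec-XII samples, with the highest and the lowest of the 8 values both in the Siglec-XII group. Its ratio was 0.826 and its log2 difference -0.05 (SE 0.0672), with an unadjusted limma p of 0.496 and an adjusted p of 0.767. Prox1 overlaps Prox1os and Gm28172 on the opposite strand. Flt4 (VEGFR3, ENSMUSG00000020357, chr11:49609263-49652739, plus strand), the receptor of VEGF-C and VEGF-D, had levels of 0.340, 0.117, 0.741 and 0.451 TPM in controls and 0.370, 0.418, 0.176 and 0.142 TPM in Siglec-XII samples. The control values spanned the whole Siglec-XII range, and the log2 difference of -0.13 (SE 0.142) was less than its error, with an unadjusted limma p of 0.374 and an adjusted p of 0.701. Its ratio of mean TPM was 0.671.

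**Figure D2:**
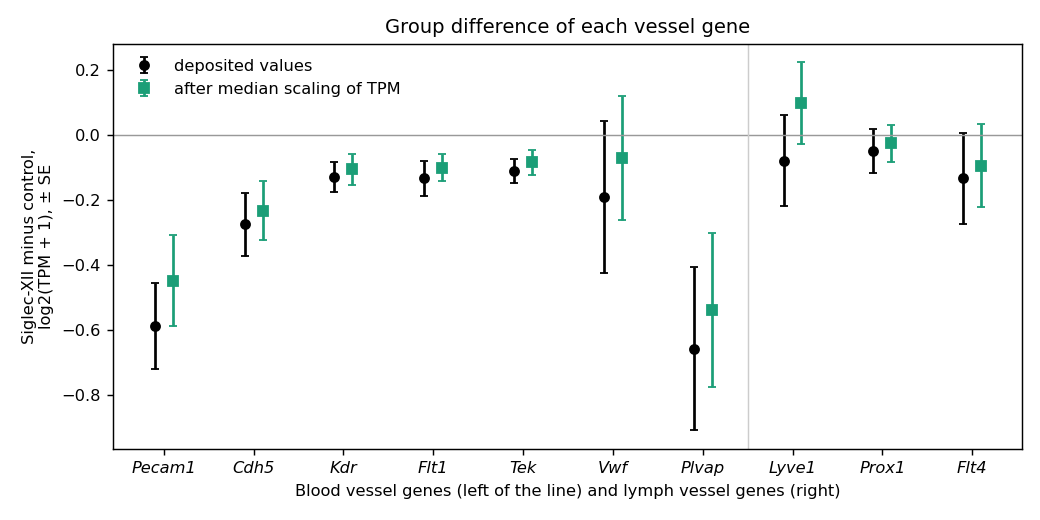
Log2 difference of each vessel gene, Siglec-XII minus control in log2(TPM + 1), with bars of ± SE from the limma fit without a filter, as deposited (black) and after each sample's TPM was scaled to a common median gene (green). Blood vessel genes are left of the vertical line and lymph vessel genes right of it. Lyve1 goes from -0.08 to 0.10 with the scaling, and Pecam1 stays below 0.

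The middle of the distribution of genes was lower in some Siglec-XII samples, although TPM sums to 1000000 in each sample, and this touches every value above. The median gene lay 0.21 log2 units lower in Siglec-XII samples on average (difference -0.21), with the lowest medians in Siglec-XII samples 4 and 3, and 78.1% of the genes tested had a difference below 0. Each sample's TPM was therefore also scaled to a common median gene. Without a filter, 3 of the 10 members were then lower at an unadjusted limma p of 0.05 (Pecam1, Cdh5 and Flt1), beside 2.42% of genes. Pecam1 had a log2 difference of -0.45 after scaling, with an unadjusted limma p of 0.0141, and Cdh5 of -0.23, with an unadjusted p of 0.0363. Flt1 had -0.10, with an unadjusted p of 0.0433, and its groups no longer overlapped, as Pecam1's did not, beside 1.29% of genes without overlap in the lower direction. Plvap at -0.54, Kdr at -0.11 and Tek at -0.08 missed the threshold, with unadjusted limma p-values of 0.0552, 0.0618 and 0.0629. The adjusted p of these 6 genes lay between 0.672 and 0.685. Vwf was at -0.07 and Lyve1 at 0.10, so the direction for Lyve1 turned with the scaling. When a sample's median was instead subtracted on the log scale, the groups of Pecam1 overlapped (1.19% of genes had none in the lower direction), and Pecam1 was the single tested member below an unadjusted p of 0.05, beside 2.16% of genes lower. Among the filtered genes, the calls at an unadjusted p of 0.05 were 1010 lower and 157 higher as deposited, and 374 lower (2.84%) and 1136 higher (8.63%) after scaling.

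Single samples also bear on the members. Control 2 was the lowest control for 6 members and Siglec-XII sample 4 the lowest of its group for 7. Without Control 2, 5 members (Pecam1, Cdh5, Kdr, Tek and Plvap) were lower with no overlap, beside 4.68% of genes, and 6 were lower at an unadjusted limma p of 0.05, beside 4.88% of genes. Cdh5 then had an unadjusted limma p of 0.00154. Without Siglec-XII sample 4, 2 members were below an unadjusted limma p of 0.05 in the fit without a filter (Pecam1 with a p of 0.0045 and Tek with a p of 0.0428), both with an adjusted p of 0.823, beside 3.2% of genes lower. There were 2 without Control 3 (7.09% of genes), 2 without Control 4 (3.95%) and 3 without Siglec-XII sample 3 (2.95%). There were 4 without Control 1 (5.83%), 6 without Siglec-XII sample 1 (8.6%) and 5 without Siglec-XII sample 2 (6.2%). Among the filtered genes Pecam1 stayed below an unadjusted p of 0.05 whichever sample was left out.

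A ratio of members within a sample does not depend on how that sample is scaled. The ratio of Pecam1 to Lyve1 was 0.807, 0.590, 0.621 and 0.577 in control samples 1 to 4 and 0.323, 0.368, 0.326 and 0.390 in Siglec-XII samples 1 to 4. All 4 Siglec-XII ratios lay below all 4 control ratios. The log2 ratio averaged -0.64 ± 0.22 among controls and -1.51 ± 0.13 among Siglec-XII samples, a difference of -0.87. A two-sided exact permutation test over the 70 labelings of the samples gave p = 0.0286, the smallest it can give, and 0.171 after Benjamini-Hochberg adjustment over the 6 pairs of the 4 tested members. The log2 ratio of Plvap to Lyve1 differed by -1.01 (exact permutation p = 0.0571, adjusted 0.171). Pecam1 to Vwf differed by -0.60 (exact permutation p = 0.2, adjusted 0.386) and Vwf to Plvap by 0.74 (exact permutation p = 0.257, adjusted 0.386). Pecam1 to Plvap differed by 0.13 (exact permutation p = 0.743) and Vwf to Lyve1 by -0.27 (exact permutation p = 0.543), both within the spread. None of the 6 passed an adjusted p of 0.05. These pairs were chosen after the values were seen. Pecam1, Plvap and Vwf also passed the filter through the controls, where they were higher, so the exact p-values are a description.

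Summed over members, the 7 blood vessel genes had 6.52, 5.70, 9.12 and 6.96 TPM in controls and 4.75, 4.93, 3.01 and 3.01 TPM in Siglec-XII samples. The mean of this summed level was 7.07 ± 1.46 TPM in controls and 3.93 ± 1.06 TPM in Siglec-XII samples, a ratio of 0.555. The 3 lymph vessel genes summed to 3.20, 3.33, 5.01 and 4.44 TPM in controls and to 4.08, 3.86, 3.32 and 3.01 TPM in Siglec-XII samples, with overlapping groups and a ratio of 0.893. The blood sum divided by the lymph sum averaged 1.78 ± 0.198 among controls, from 1.57 to 2.04, and 1.09 ± 0.166 in Siglec-XII samples, from 0.906 to 1.28. These sums are dominated by Pecam1, Plvap, Vwf and Lyve1 and are given as a description with no test.

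**Figure D3:**
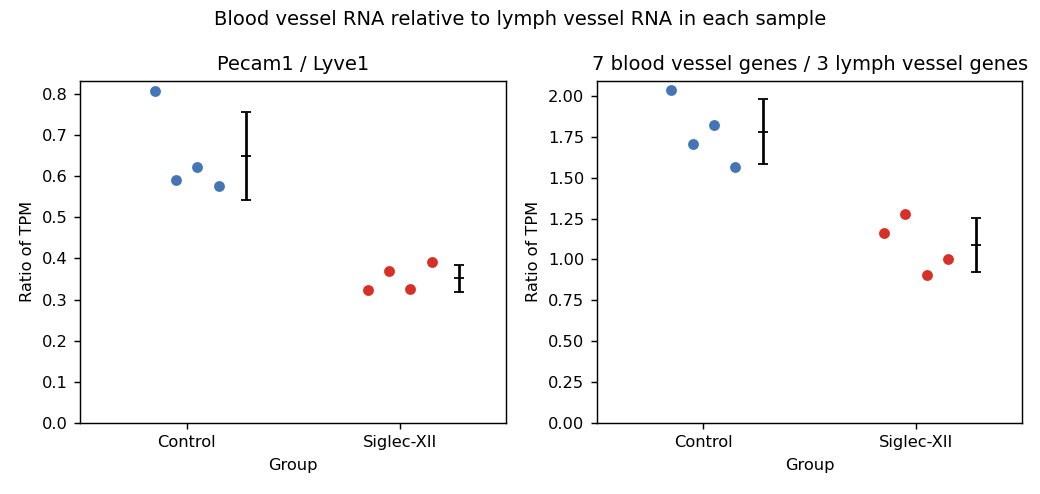
Ratio of TPM within each sample, for Pecam1 over Lyve1 (left) and for the sum of the 7 blood vessel genes over the sum of the 3 lymph vessel genes (right). Points are samples, and the black mark and bar are the group mean ± SD. In both panels the 4 Siglec-XII points lie below the 4 control points.

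Smooth muscle RNA, from the wall of the colon and of larger vessels, was lower in Siglec-XII samples as well. Of 8 smooth muscle genes, all tested, 4 were lower at an unadjusted limma p of 0.05 (Myh11, Des, Cnn1 and Synpo2), beside 7.67% of the genes tested. None was higher and none passed an adjusted p of 0.05. The groups did not overlap for Des, Cnn1 and Synpo2, beside 4.06% of the genes tested without overlap in the lower direction. After median scaling in the fit without a filter, 0 of the 8 passed at an unadjusted p of 0.05, with a median difference of -0.45 (2.42% of genes were lower). Under median centring of the filtered genes 3 of the 8 did (Myh11, Des and Cnn1), beside 2.16% of genes lower. Desmin (Des), the muscle intermediate filament, was 85.9 ± 15.8 TPM in controls and 53.6 ± 14.9 TPM in Siglec-XII samples (log2 difference -0.70). The summed level of the 8 genes was 903, 675, 1080 and 869 TPM in control samples 1 to 4 and 693, 609, 694 and 326 TPM in Siglec-XII samples 1 to 4. Control 2, with the lowest sum of its group, was also the control with the least Pecam1, and Siglec-XII sample 4 had the lowest sum of all 8. Pecam1 per 1000 TPM of smooth muscle RNA ran from 2.29 to 2.63 among controls and was 1.60, 1.94, 1.42 and 3.37 in Siglec-XII samples, so that 3 of 4 lay below all controls and Siglec-XII sample 4 above them. The sum of the 7 blood vessel genes per 1000 TPM of smooth muscle RNA averaged 8.03 ± 0.576 among controls, from 7.22 to 8.44. In Siglec-XII samples it averaged 7.13 ± 2.10, at 6.85, 8.10, 4.34 and 9.24. Here the groups overlapped, and 2 of 4 Siglec-XII samples lay below all controls. The part of smooth muscle content in the vessel values was not tested.

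**Figure D4:**
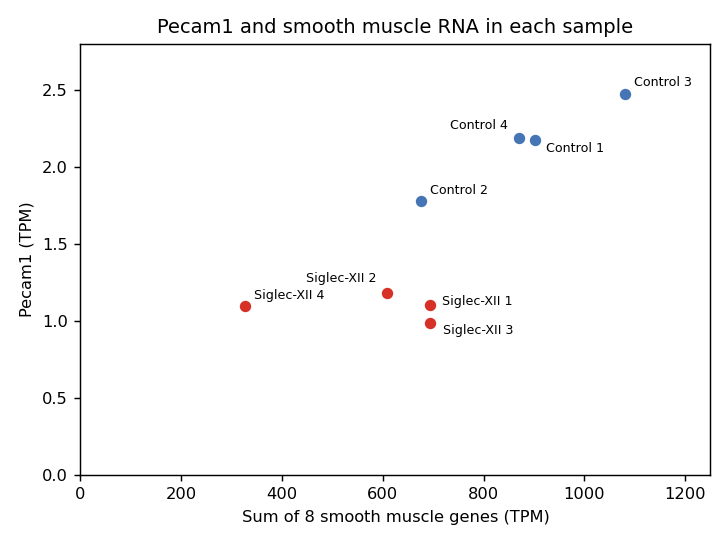
Level of Pecam1 (TPM) against the summed level of 8 smooth muscle genes (TPM) in each control sample (blue) and Siglec-XII sample (red). Siglec-XII samples 1 and 3, at 693 and 694 TPM of smooth muscle RNA, lie near Control 2 (675 TPM) on the horizontal axis. They have 1.11 and 0.985 TPM of Pecam1, and Control 2 has 1.78. Siglec-XII samples 2 and 4, at 609 and 326 TPM of smooth muscle RNA, have 1.18 and 1.10 TPM of Pecam1. Relative to its smooth muscle RNA, Siglec-XII sample 4 has more Pecam1 than any control.

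Markers of white blood cells, some of which make Pecam1, also had lower summed levels on average in the Siglec-XII samples. The summed level of 7 macrophage genes ran from 8.44 to 22.4 TPM in controls and from 5.92 to 9.84 TPM in Siglec-XII samples. C1qb, a complement subunit, was 1 of 3 tested genes lower at an unadjusted limma p of 0.05, beside 7.67% of the genes tested. Without a filter, 2 of the 7 were lower, beside 5.35% of genes. These were C1qb (unadjusted limma p of 0.0449) and Csf1r (0.0397). The sum of 5 leukocyte genes ran from 5.50 to 24.0 TPM in controls and from 4.10 to 6.95 TPM in Siglec-XII samples. In the fit without a filter, 2 of these 5, Ptprc (CD45) and Itgam (CD11b), were lower at an unadjusted limma p of 0.05, beside 5.35% of genes. The part of white blood cells in the Pecam1 difference was not tested. For platelets, 0 of 3 tested genes passed at an unadjusted limma p of 0.05, with a summed level of 18.9 to 250.3 TPM in controls and 32.8 to 64.3 TPM in Siglec-XII samples. For red cells, which follow the blood left in the tissue, 0 of 4 did, with 8.30 to 356.6 TPM in controls and 44.6 to 236.2 TPM in Siglec-XII samples, and a median difference of 1.05. The epithelial sum of 7 genes was 9483 ± 1565 TPM in controls and 9641 ± 1073 TPM in Siglec-XII samples, and 0 of the 7 passed at an unadjusted limma p of 0.05. None of the fibroblast (5 tested), enteroendocrine (4 tested), adipocyte (3 tested) or neuron and glia genes (2 tested) was past an unadjusted limma p of 0.05.

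Other endothelial genes gave a mixed picture. In a list of 23 further pan-endothelial genes, 7 were tested. Of these, 1 was lower at an unadjusted limma p of 0.05 (7.67% of the genes tested were) and none was higher. That gene was Sox7, a transcription factor of vessel development, at 3.83 ± 3.31 TPM in controls and 0.680 ± 0.356 TPM in Siglec-XII samples (log2 difference -1.29, SE 0.439), with an unadjusted limma p of 0.0162 and an adjusted p of 0.515. Its controls ran from 0.814 to 8.45 TPM, so the difference came with a wide control spread. The 3 genes of that list with the highest mean log2(TPM + 1) over all 8 samples did not pass an unadjusted p of 0.05, and by control mean alone Sox7 would be among them. Clec14a, an endothelial lectin, was 5.40 ± 0.537 TPM in controls and 5.78 ± 1.02 TPM in Siglec-XII samples. Ecscr, an endothelial surface protein, was 3.19 ± 1.10 and 2.65 ± 0.476 TPM, and Cd34, a sialomucin of capillaries and of some stromal cells, 2.20 ± 0.487 and 2.78 ± 2.39 TPM. Without a filter, 4 of the 23 were lower at an unadjusted limma p of 0.05 and none higher, beside 5.35% of genes lower, and 18 of the 23 differences were below 0. Besides Sox7 these were Sox18, Eng and Nos3. Sox18, a transcription factor of vessel development like Sox7, was 0.514 ± 0.106 TPM in controls and 0.239 ± 0.0691 TPM in Siglec-XII samples, with groups that did not overlap (log2 difference -0.29), an unadjusted limma p of 0.00416 and an adjusted p of 0.682. Eng (endoglin), a TGF-beta co-receptor, was 0.657 ± 0.267 and 0.287 ± 0.0757 TPM, with an unadjusted p of 0.0239 and an adjusted p of 0.682. Nos3, the endothelial nitric oxide synthase, was 0.0788 ± 0.0248 and 0.0359 ± 0.0207 TPM, with an unadjusted p of 0.0376 and an adjusted p of 0.682. The median difference of the 23 was -0.12, and their summed level was 25.4 ± 5.83 TPM in controls and 19.6 ± 3.41 TPM in Siglec-XII samples, a ratio of 0.769.

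Lists of vessel subtypes were read in the same way. None of 2 tested genes of activated and venular endothelium passed at an unadjusted limma p of 0.05. Nr2f2, the venous transcription factor, was 10.4 ± 2.55 TPM in controls and 7.73 ± 3.07 TPM in Siglec-XII samples. None of 3 tested arterial genes passed, and Efnb2, an arterial ephrin also made by epithelium, was 26.8 ± 5.24 against 25.1 ± 5.53 TPM. None of 3 further lymphatic genes passed, and Ccl21a, the chemokine of lymph vessels, was 23.4 ± 10.1 against 21.3 ± 3.42 TPM (log2 difference -0.01). Ccl21a has near-identical copies in the mouse, so its value is uncertain. Of the 7 lymphatic genes 3 lay below 1 TPM in all samples, where the log2 scale understates a change. Among these, Reln was 0.390 ± 0.175 TPM in controls and 0.202 ± 0.0521 TPM in Siglec-XII samples. Its unadjusted limma p without a filter was 0.0549. Foxc2 was 0.0338 and 0.0304 TPM, and Stab2 0.0313 and 0.0180 TPM. Without a filter, Hey1 was the single one of 7 arterial genes lower at an unadjusted limma p of 0.05, beside 5.35% of genes. The other subtype lists had none.

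Ligands of the member receptors were measured too. None of 5 tested genes among 10 VEGF and angiopoietin ligands and co-receptors passed at an unadjusted limma p of 0.05. Vegfa, the main ligand of Kdr and Flt1, was 17.7 ± 5.54 TPM in controls and 18.3 ± 5.17 TPM in Siglec-XII samples, with a log2 difference of 0.06 (SE 0.234). Vegfb, a ligand of Flt1, was 11.4 ± 1.09 and 9.80 ± 2.22 TPM, and the co-receptor Nrp2 4.54 ± 1.06 and 3.76 ± 0.500 TPM. Vegfc, a ligand of Flt4, was 3.03 ± 0.802 and 2.32 ± 0.562 TPM. Without a filter, Nrp1, a co-receptor of VEGF-A, was the single gene of the 10 lower at an unadjusted limma p of 0.05, beside 5.35% of genes. None was higher at that level, beside 1.17% of genes. After median scaling, 1 of the 10 was lower and 1 higher. Pgf, placental growth factor, was 0.134 ± 0.0832 TPM in controls and 0.231 ± 0.0577 TPM in Siglec-XII samples, with an unadjusted limma p of 0.0826. In the fit without a filter, 7 of the 10 differences were below 0. Among mural cells, which wrap capillaries, 1 of 3 tested genes was lower at an unadjusted limma p of 0.05, beside 7.67% of the genes tested. It was Notch3, at 2.84 ± 2.62 against 0.538 ± 0.465 TPM (log2 difference -1.10), with an unadjusted limma p of 0.0422 and an adjusted p of 0.515. Without a filter, the unadjusted limma p of Notch3 was 0.0615, and 2 of the 7 mural cell genes were lower at 0.05, beside 5.35% of genes. These were Rgs5, a regulator of G protein signalling in pericytes, at 1.57 ± 0.528 against 0.849 ± 0.169 TPM, and Abcc9, a potassium channel subunit of pericytes, at 0.363 ± 0.153 against 0.171 ± 0.0566 TPM. Pdgfrb, the pericyte growth factor receptor, was 1.59 ± 0.312 and 1.47 ± 0.544 TPM. Kcnj8 went the other way, at 2.13 ± 0.369 TPM in controls and 3.27 ± 1.32 TPM in Siglec-XII samples (log2 difference 0.40). Its unadjusted limma p was 0.126, and 6 of the 7 mural cell differences were below 0.

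**Figure D5:**
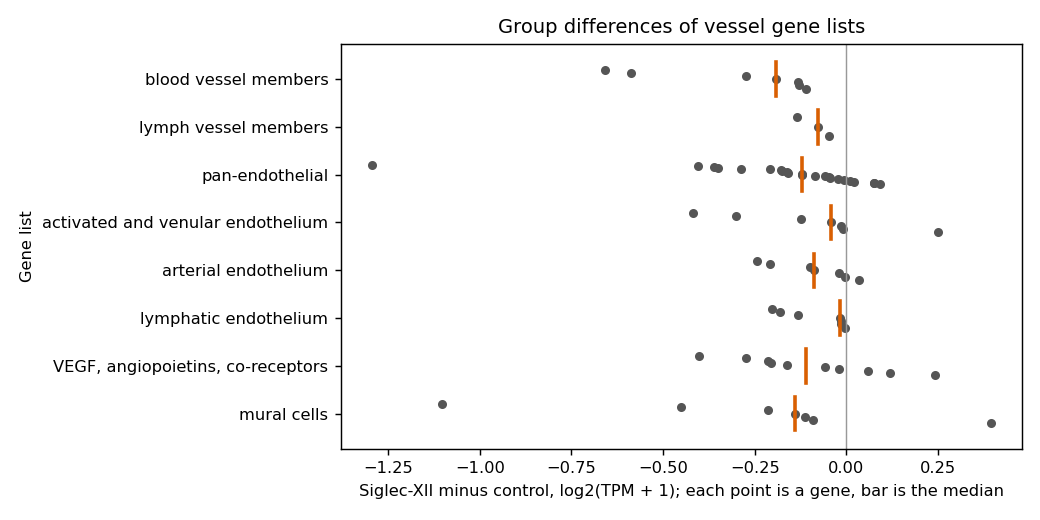
Log2 difference, Siglec-XII minus control in log2(TPM + 1), of each gene (point) in the vessel gene lists named on the vertical axis, with an orange bar at each list's median. Blood vessel members reach down to -0.66, and the 7 further lymphatic genes run from -0.20 upward with a median of -0.02. Of those 7, 3 lay below 1 TPM in all samples, where this scale understates a change. The points far to the left are Sox7 among pan-endothelial genes and Notch3 among mural cell genes.

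The tested gene whose profile over the 8 samples was most like the mean of the 4 tested members, after each sample was centred on its median gene, was Col4a1 (Pearson r = 0.94). Col4a1 encodes a collagen of basement membranes, and its log2 difference was -0.35. Zfp689 (r = 0.89), Zfp759 (r = 0.88), Clip3 (r = 0.86) and Dhdds (r = 0.85) followed. For Lyve1, the single lymph member tested, the nearest genes were 1500002F19Rik, Gm49359, Stamos, 1190007I07Rik and Gm9949, with r from 0.94 to 0.97. These correlations are over 8 samples, and the points share the group difference. They were also picked as the highest among the 13164 genes tested, and a search of that size over 8 samples gives high r without any relation.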

How the data were processed

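Paired reads were made from RNA of 8 distal colon samples, 4 per group. The authors deposited log2(TPM + 1) for 52143 genes, and the submitters' processing notes name kallisto 0.45.0 and GRCm38, while the Methods name a human reference; 98.5% of the identifiers are in GENCODE M21 (mouse). TPM sums to 1000000 per sample and keeps no read number, so depth is unknown and no counting interval was given. The labels give no batch or date. They list 4 samples per group, whereas the design text speaks of 3 mice per condition. No columns were left out, and no sample repeated another (highest correlation 0.987).

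A gene was tested where 4 or more samples had 1 TPM or more. The test was limma (version 3.58.1, run in R 4.3.3; lmFit, then eBayes with a trend), adjusted by Benjamini-Hochberg over all genes tested, because a count model does not apply to TPM. The fit was tested on simulated data. Exact tests used scipy 1.17.1 and figures matplotlib 3.10.9, under Python 3.11.15. The samples' numbers did not pair them: deviations of same-numbered samples correlated at -0.16, -0.20, 0.10 and -0.0025. The members and gene lists were chosen with earlier results of these data known. All 10 members were named, and from each other list up to 3 genes of highest mean and those past p 0.05, with the 5 genes most like the members; of these, the genes a result turned on are printed. Hey1, Nrp1, Vegfc, Sox18, Eng, Nos3, Rgs5, Abcc9, Csf1r, Reln, Foxc2 and Stab2 were added after their values were seen. Alternatives were other filters, pseudocount 0.1, median centring, median scaling, quantile normalization, array weights, unmoderated variance, a replicate block and leaving out each sample.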

Additional observations from a re-analysis of the deposited data

Results flagged for a closer look

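No member was set apart from its group in a single sample. Among the other listed genes, a sample stood far from the rest of its group of 4 in 6 of 126 groups, where chance gives about 1 in 20 (6.3). The number in parentheses is that sample's distance from its nearest neighbour divided by the whole range of the 4, and levels are in log2(TPM + 1). Siglec-XII sample 4 was low in 3 smooth muscle genes. Acta2 was 5.52 there and 6.82 in the nearest sample (0.875), Actg2 was 5.91 and 7.23 (0.907), and Des was 5.03 and 5.88 (0.832). The same sample was high in Vcam1, an adhesion molecule of activated endothelium, at 1.69 against 0.47 (0.847). Control 1 was low in Gja4, an arterial connexin, at 0.92 against 1.09 (0.868). Siglec-XII sample 2 was high in Ppbp, a platelet chemokine, at 5.90 against 4.99 (0.888).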

How the results depend on the processing

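Pecam1 was lower at an unadjusted limma p of 0.05 in the main fit and in all 16 alternatives, with log2 differences from -0.91 to -0.38, and its adjusted p ran from 0.119 to 0.905. Plvap missed the threshold under median centring, quantile normalization and without Siglec-XII sample 4. In the fits without a filter, Cdh5 missed it in 6 of 14 alternatives, Kdr in 8, Flt1 in 7 and Tek in 2. No member passed an adjusted p of 0.05 in any of these, and the cause of each change was not tested. Members lower at an unadjusted p of 0.05 numbered 2 (7.67% of genes were lower), against 6 with no filter, which tests 10 members (5.35%). They numbered 1 under median centring (2.16%), 1 under quantile normalization and 1 to 2 with a sample left out. Under quantile normalization 1112 of 13164 genes passed in either direction. Members without overlap numbered 1 (4.06% of genes were lower without overlap), against 0 under median centring (1.19%) and 1 to 2 with a sample left out. For the filtered genes with a sample left out, the shares of genes lower or without overlap were not taken. The median difference of the tested members was -0.39, against -0.13 with no filter, -0.63 with a pseudocount of 0.1, -0.18 under median centring and -0.46 to -0.32 with a sample left out. A filter at 5 TPM left no member. Vwf turned to 0.022 under median centring and 0.073 with array weights. Lyve1 turned to 0.13 under median centring, 0.10 under median scaling of TPM (chosen after seeing the data) and 0.15 under quantile normalization. Prox1 without a filter was at 0.0029 without Siglec-XII sample 4. The log2 ratio of Pecam1 to Plvap was -0.062 without Control 3 and -0.053 without Siglec-XII sample 4 (-0.062 to 0.35 with a sample left out), and that of Vwf to Lyve1 was 0.0047 without Siglec-XII sample 3 (-0.47 to 0.0047). The ratio of Pecam1 to Lyve1 differed by -0.93 to -0.76 with a sample left out, where 35 labelings cannot give an exact p under 0.0571. Over all genes, 5 passed an adjusted p of 0.05, against 3 with a filter at 5 TPM, 3 with no filter, 18 with array weights, 3 without moderation and 2 to 6 with a sample left out. At an unadjusted p of 0.05 there were 1167, against 699 with a filter at 5 TPM, 2043 with no filter, 1851 with array weights and 483 to 2365 with a sample left out. With the replicate number as a block, 4 of 13164 genes passed an adjusted and 945 an unadjusted p of 0.05. In that fit 2 of the 4 tested members were lower, or 3 of 10 without a filter, where the share of all genes was not taken. The samples share only a number. Depth is unknown, so the 6 members under 1 TPM carry an unmeasured counting error.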
